A study of Drosophila melanogaster with 2 samples.

Results

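The 75 genes described here encode the proteins of the Drosophila mitochondrial ribosome. They are the protein-coding genes whose symbol begins with mRpL (large subunit) or mRpS (small subunit), with bonsai and tko added, and they are 75 of the 13968 protein-coding genes of the annotation. A gene was called bound where the summit of a peak lay within 250 bp of any of its annotated transcription start sites (TSSs). By that rule 50 of the 75 genes (66.7%) were bound by gfzf-GFP, against 33.0% of all protein-coding genes.

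The peaks came from chromatin immunoprecipitation and sequencing (ChIP-seq) with an antibody against green fluorescent protein (GFP). The chromatin was from whole embryos of mixed sex, 0 to 24 h after laying, of a transgenic fly line in which GFP is joined to the C-terminal end of gfzf, and sonication gave fragments of 200 to 800 bp. There were 2 biological replicates in 1 group with a shared control, so no condition could be compared, and the labels do not say whether the replicates were separate collections of embryos. The protein pulled down was the tagged fusion, and whole embryos mix all cell types and many hours of development, so a peak cannot be assigned to a tissue or a stage. The lists hold no expression values, so the labelled tissue could not be checked against marker genes. Read depth is not given in the sources used here. The precision rests on the 2 replicates. The peak signal is the authors' own value on a scale that is not stated, so it was compared only within a list.

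Mitochondrial ribosomes translate the few mRNAs encoded by mitochondrial DNA, which in animals specify subunits of the respiratory chain and of the ATP synthase. Their RNAs come from mitochondrial DNA, whereas all their proteins are encoded in the nucleus, made in the cytosol and imported. Some of these proteins descend from bacterial ribosomal proteins and others are found only in mitochondrial ribosomes. The protein gfzf combines zinc fingers of the FLYWCH type with a domain like that of glutathione S-transferases. In Drosophila cells it has been described as a co-activator that works with M1BP, the protein that binds the promoter element Motif 1.

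DNA of 11 genes is shown, 9 windows with elements that the results below turn on and 2 without, from strongly bound genes. The mRpL13 line is the 101 bp centred on the summit of the strongest peak among the ribosomal genes. Each other line runs from 70 bp upstream to 29 bp downstream of the most upstream TSS, so that base 71 is the start site. All lines are on the gene's own strand, in lower case, from the release 6 (dm6) reference genome of RefSeq. Capitals mark matches, on either strand, to the Motif 1 core GGTCACAC, the DNA replication-related element (DRE) TATCGATA, Motif 6, Motif 7 or the E-box CAGCTG. The genes from mRpL13 to mRpL19 were bound, and mRpL17 and mRpS25 were not.
mRpL13, chr2L:18859271-18859371, minus strand: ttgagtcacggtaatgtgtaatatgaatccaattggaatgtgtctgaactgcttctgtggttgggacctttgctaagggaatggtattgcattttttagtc
mRpL55, chr3R:19094876-19094975, minus strand: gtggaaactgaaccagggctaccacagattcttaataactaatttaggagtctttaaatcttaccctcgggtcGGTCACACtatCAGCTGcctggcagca
mRpL15, chr3L:20436180-20436279, minus strand: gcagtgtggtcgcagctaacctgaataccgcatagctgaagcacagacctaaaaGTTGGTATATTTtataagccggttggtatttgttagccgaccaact
mRpL50, chr3L:7243904-7244003, minus strand: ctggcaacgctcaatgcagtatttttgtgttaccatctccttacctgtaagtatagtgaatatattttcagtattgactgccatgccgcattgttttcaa
mRpL48, chr2L:1710392-1710491, plus strand: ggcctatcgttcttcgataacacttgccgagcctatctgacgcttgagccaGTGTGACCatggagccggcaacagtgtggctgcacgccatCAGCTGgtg
mRpL21, chr3L:19255032-19255131, minus strand: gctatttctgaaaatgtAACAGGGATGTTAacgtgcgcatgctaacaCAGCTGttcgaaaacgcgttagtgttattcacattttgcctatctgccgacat
mRpL2, chr3L:11120777-11120876, plus strand: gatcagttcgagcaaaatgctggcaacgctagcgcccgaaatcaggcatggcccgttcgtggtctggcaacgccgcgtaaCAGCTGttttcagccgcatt
mRpL10, chr2L:203709-203808, plus strand: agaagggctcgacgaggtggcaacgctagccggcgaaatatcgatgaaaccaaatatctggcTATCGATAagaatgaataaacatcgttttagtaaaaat
mRpL19, chr3R:8674039-8674138, plus strand: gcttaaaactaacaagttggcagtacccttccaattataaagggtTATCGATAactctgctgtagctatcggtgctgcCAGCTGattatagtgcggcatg
mRpL17, chr3L:264709-264808, plus strand: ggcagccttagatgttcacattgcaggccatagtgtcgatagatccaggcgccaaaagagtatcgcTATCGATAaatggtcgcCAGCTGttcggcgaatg
mRpS25, chrX:14582953-14583052, minus strand: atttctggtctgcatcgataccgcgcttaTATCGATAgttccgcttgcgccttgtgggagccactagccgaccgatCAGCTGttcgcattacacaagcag

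In the mRpL55 window the Motif 1 core and the E-box stood side by side just downstream of the start, centred 6.5 and 16.5 bp into the gene. In mRpL48 the Motif 1 core lay upstream of the start and the E-box downstream. mRpL50, with the ninth-highest signal, held none of the 5 elements, and neither did the summit window of mRpL13. The unbound mRpL17 and mRpS25 each held a DRE and an E-box. The bound mRpL19 held the same combination.

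Among the 47 large subunit genes, 34 (72.3%) were bound, and among the 28 small subunit genes, 16 (57.1%). The median signal of the bound genes was 326.6 for the large subunit and 347.9 for the small subunit, with ranges of 96.5 to 7376.7 and 95.0 to 5453.2, so the 2 subunits overlapped along nearly their whole range. A further grouping, made after the values were seen, used the protein numbers, since large subunit proteins up to L36 and small subunit proteins up to S21 mostly have bacterial counterparts. Of the large subunit genes, 21 of 28 with such numbers and 13 of 19 with higher numbers were bound (75% and 68.4%). Of the small subunit genes, with tko and bonsai counted among the former, 11 of 16 and 5 of 12 were bound (68.8% and 41.7%). These are counts of genes in 1 set of peaks and were not tested.

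The bound ribosomal genes had a lower median signal than bound genes as a whole, a difference that was not tested. Their median of 326.6 (quartiles 137.5 and 1224.9) compares with 724.2 (193.8 and 2056.6) over all 4609 bound genes. The size of this gap depended on the peak list: with the longer, relaxed list described below the medians were 152.9 and 173.4. By the quartiles of all bound genes, 19 of the 50 fell in the lowest, 13 in the next, 9 in the third and 9 in the highest. A signal under 200 was found at 40% of them and at 25.8% of all bound genes, and a signal over 1000 at 30% and 43.4%. The 5007 peaks of the optimal set, most of which are not at these genes, had a median of 360.6. The ribosomal genes were thus near the middle of all peaks and in the lower part of the bound promoters. The plot of signal by gene shows 9 genes from 7376.7 down to 2520.4, a gap down to mRpL16 at 1458.8, and then a run without a break to the end of the optimal set.

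**Figure D1:**
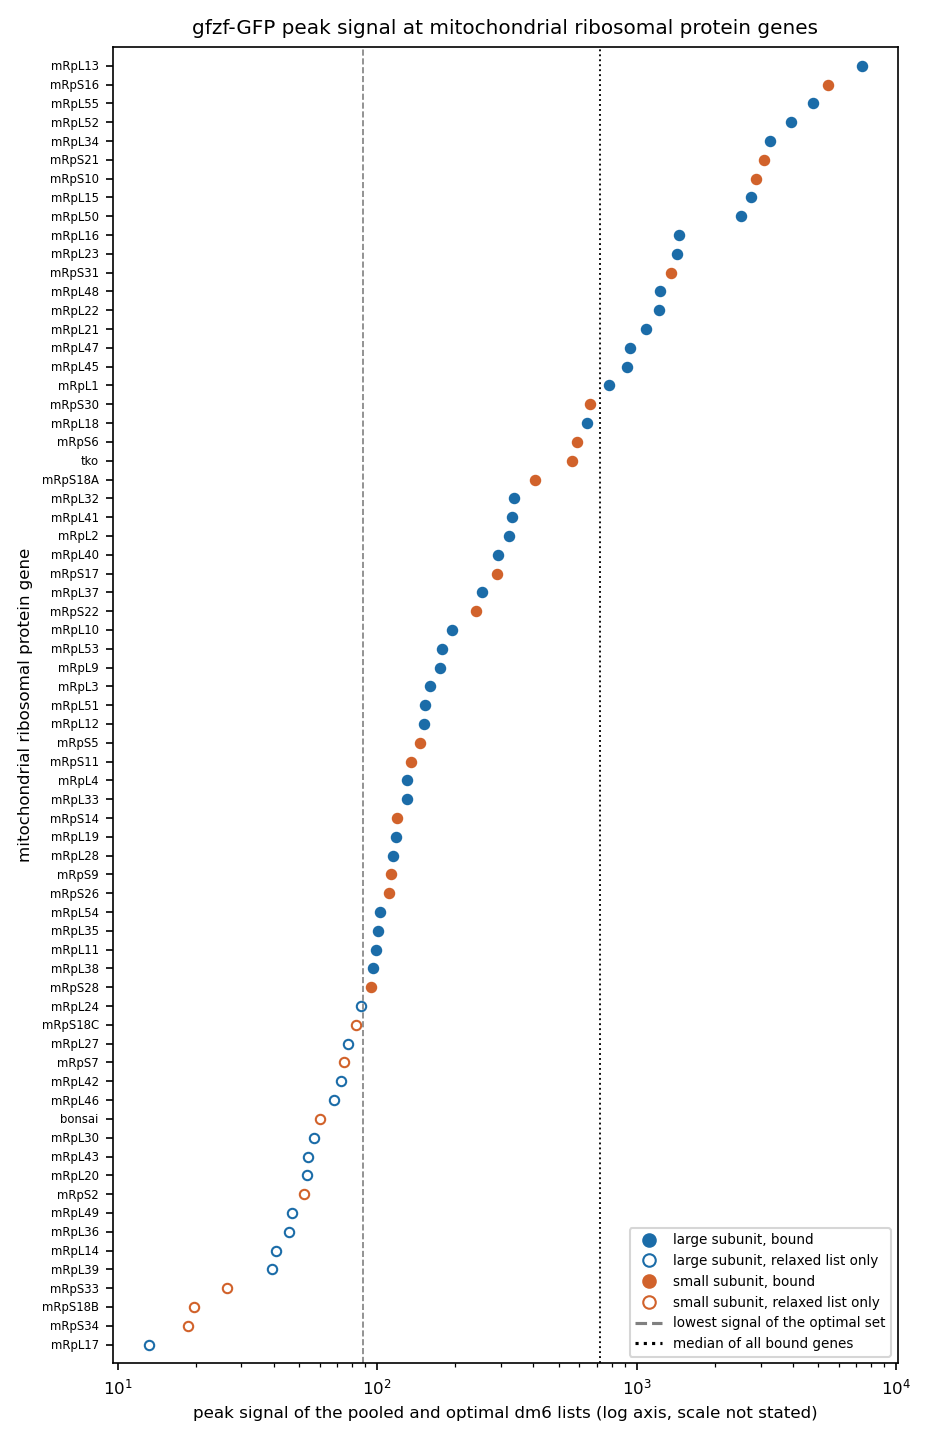
Peak signal (log axis, scale not stated) of the 69 mitochondrial ribosomal protein genes with a summit within 250 bp of a TSS. Filled points are the 50 bound genes, open points the 19 with a summit only in the relaxed pooled list, the dashed line is the lowest signal of the optimal set (88.4), and the dotted line is the median of all bound genes (724.2).

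mRpL13, for a large subunit protein with a bacterial counterpart, had the highest signal of the set. Its peak at chr2L:18858782-18859674 had a signal of 7376.7, rank 42 of the 5007 optimal peaks, with the summit 73 bp upstream of the TSS and outside any protein-coding gene. Its signal was 4558.5 in replicate 1 (rank 42) and 2836.7 in replicate 2 (rank 44). The rank was nearly the same in both replicates, and the summit was at the same base in all 3 lists. A start of CG10602, on the same strand, lay within 250 bp of that summit.

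mRpL55, of the large subunit, shared its summit with the divergent gene ATPsynD, which encodes a subunit of the ATP synthase. The peak at chr3R:19093939-19095468 had a signal of 4756.8 (rank 190), with 2852.4 in replicate 1 (rank 201) and 1935.6 in replicate 2 (rank 171). Its width of 1530 bp was the largest among the bound ribosomal genes, and mRpL55 was 1 of 2 of them, with mRpL23, that had more than 1 optimal summit near a TSS. ATPsynD and mRpL55 thus stood at 1 summit although they serve different complexes of the mitochondrion. Where 2 or more genes share 1 summit, as at mRpL13, here and below, the data cannot assign it to any of them.

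The other large subunit genes among the 10 strongest were mRpL52, mRpL34, mRpL15, mRpL50 and mRpL16. mRpL52 had a signal of 3926.8 (rank 317), with 2382.1 and 1555.0 in replicates 1 and 2, and shared the summit with CG12107. mRpL34 had 3251.4 (rank 454), with 1969.9 and 1271.0, and no other protein-coding start stood within 250 bp of its summit. The same was true of mRpL50, so these 2 are the strongest summits that belong to a ribosomal gene alone. mRpL50 had 2520.4 (rank 689), with 1587.7 and 934.9, and its summit lay 15 bp upstream of the TSS. mRpL15 had 2743.8 (rank 600), with 1758.5 and 1000.7, and its summit 20 bp upstream of the TSS was shared with CtIP, a gene for a protein of DNA end resection. mRpL16, whose bacterial counterpart binds near the peptidyl transferase centre, stood apart from these by its distance. Its summit, 232 bp upstream, was shared with trr, which encodes a histone H3 lysine 4 methyltransferase, and its signal was 1458.8 (rank 1259), with 883.7 and 571.4.

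Of the small subunit, mRpS16, mRpS21 and mRpS10 were among the 10 strongest, and each had a divergent neighbour at the summit. mRpS16 had a signal of 5453.2 (rank 133), with 3290.5 in replicate 1 and 2190.8 in replicate 2, and its summit lay 42 bp upstream of the TSS at a promoter shared with cg, which encodes the zinc finger protein Combgap. mRpS21 had 3104.5 (rank 484), with 1797.0 and 1305.0, and shared the summit with Droj2, a gene for a DnaJ-like chaperone. mRpS10 had 2879.1 (rank 563), with 1853.1 and 1037.8, and shared the summit with Art3, which encodes an arginine methyltransferase. For mRpS21 and mRpS10 the summits were 228 and 187 bp from the ribosomal gene, farther than the 42 bp of mRpS16.

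tko encodes the mitochondrial counterpart of the bacterial decoding-site protein S12, and a mutation in it gives bang-sensitive flies that are a model of mitochondrial disease. It was bound on its own, with a signal of 564.6 (rank 2106), 360.6 in replicate 1 (rank 2121) and 201.6 in replicate 2 (rank 2191), and a summit 26 bp upstream of its TSS. bonsai, which encodes the counterpart of S15, was not bound. The relaxed pooled list had a summit 78 bp upstream of it, shared with Cdk9, the kinase of the elongation factor P-TEFb, with a signal of 60.4 (rank 6258), 35.6 in replicate 1 and 21.4 in replicate 2.

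The weakest bound genes were mRpL11 at 98.8, mRpL38 at 96.5 and mRpS28 at 95.0, ranks 4714, 4776 and 4822 of 5007. Their signals in replicates 1 and 2 were 66.5 and 34.6 for mRpL11, 60.9 and 36.1 for mRpL38, and 66.1 and 32.6 for mRpS28. mRpS28 was the last gene inside the set and mRpL24 the next one outside it, at 86.6, so the bound and unbound genes met without a gap in signal. The lowest signal of the optimal set was 88.4. A similar limit applied to distance: the optimal summit nearest to mRpS23 was 267 bp away, just past the 250 bp allowed, and that nearest to mRpS7 was 378 bp away.

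Most unbound ribosomal genes had a weaker summit at the start. The relaxed pooled list of 30000 peaks, which was the input of the authors' reproducibility filter and contains the optimal set as its 5007 strongest peaks, had a summit within 250 bp of 69 of the 75 genes (92.0%), against 51.6% of all protein-coding genes. Among the 25 unbound genes it was 19 (76.0%), against 27.7% of all unbound genes. The median signal at these 19 was 53.7, against 33.2 over all unbound genes with such a summit, and 14 of the 19 had a summit within 100 bp of it in the lists of both replicates. The 5 strongest were mRpL24, mRpS18C, mRpL27, mRpS7 and mRpL42.

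Of these 5, mRpL24 had a pooled signal of 86.6 (rank 5079), with 63.7 in replicate 1 and 21.6 in replicate 2, and shared the summit with betaggt-I, a gene for the beta subunit of a geranylgeranyl transferase. mRpS18C had 82.6 (rank 5233), with 47.9 and 35.1, and shared it with CG15535. mRpL27 had 77.0 (rank 5445), with 42.1 and 32.3, and shared it with CG15435. The summit at mRpL24 lay outside protein-coding genes, and those at mRpS18C and mRpL27 lay in the 5′ untranslated region of the neighbour. mRpS7 had 74.7 (rank 5537), with 44.7 and 36.4, and shared the summit with Cdk1, the kinase that drives entry into mitosis. mRpL42 had 72.3 (rank 5652) and shared the summit with PIG-N, but its replicates differed most, at rank 4976 in replicate 1 and rank 13378 in replicate 2. The other summits of this kind lay at mRpL46, bonsai, mRpL30, mRpL43, mRpL20, mRpS2, mRpL49, mRpL36, mRpL14, mRpL39, mRpS33, mRpS18B, mRpS34 and mRpL17, with signals from 68.1 at mRpL46 down to 13.2 at mRpL17.

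For 6 genes no peak of the relaxed list had its summit within 250 bp of a TSS. They were mRpL44 of the large subunit and mRpS23, mRpS24, mRpS25, mRpS29 and mRpS35 of the small subunit. mRpS29 is the counterpart of the human GTP-binding protein DAP3. Summits were thus found at 46 of 47 large subunit genes and at 23 of 28 small subunit genes. The start of mRpS23 nevertheless lay inside a strong optimal peak at chr2L:13834768-13835811. Its signal was 2212.0 (rank 819), with 1349.2 in replicate 1 (rank 840) and 856 in replicate 2 (rank 809). The summit was 267 bp from mRpS23 and within 250 bp of a start of CenG1A, so mRpS23 counted as unbound by the distance alone. At the other 5 genes no peak covered the start. A list of peaks does not say how much signal lies where no peak was called, so the level at these 5 is not known.

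The order of the genes by signal was nearly the same in both replicates. All 50 bound genes had a summit within 100 bp of the optimal one in each replicate's own list, and the ranks in the 2 lists differed by a median of 1.08-fold. Among the 25 stronger genes the largest difference was 1.28-fold, and among the 25 weaker ones 2.55-fold, at mRpL54, with rank 3963 in replicate 1 and rank 10089 in replicate 2. Spearman's rho between the replicates' signals was 0.937 over the 50 genes, a description only, since the genes were chosen as bound from both replicates pooled. In each replicate's own order 3 and 6 of the 50 genes lay past rank 5007. The signal of replicate 1 was a median of 1.67 times that of replicate 2 at these genes, close to the 1.65 over all optimal peaks, so only ranks are compared across replicates.

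**Figure D2:**
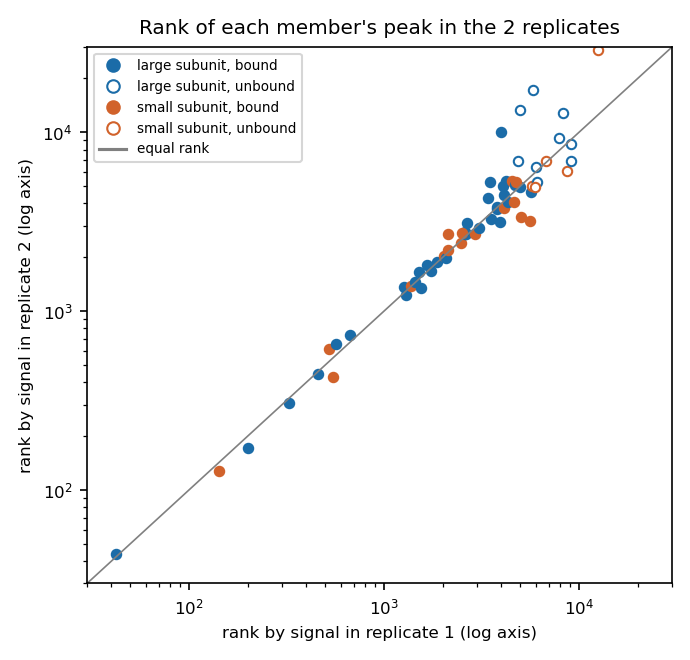
Rank by signal in replicate 1 (x) and replicate 2 (y), both log axes, of the peaks at ribosomal genes found in both replicates' lists. Filled points are the 50 bound and open points the 14 unbound genes, coloured by subunit, and the line marks equal ranks: points leave the line mainly among the weaker peaks.

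Summits sat just upstream of the starts. The median position over the 50 bound genes was -51 bp from the TSS (quartiles -95.75 and -21, range -232 to 73), against -48 over all bound genes. The summit was upstream at 41 genes and downstream at 9, so 82.0% were upstream, against 89.0% of all bound genes, and 38 lay within 100 bp (76.0% against 77.0%). In the annotation 35 summits lay outside protein-coding genes, 9 inside the ribosomal gene itself, 5 inside a neighbour and 1 where the 5′ untranslated regions of mRpS14 and Naa15-16 overlap. The peaks had a median width of 524 bp, against 546 bp over all optimal peaks. A width of exactly 524 bp recurred at several weak peaks, such as those of mRpL54, mRpL35 and mRpS28. In position the ribosomal genes were therefore close to bound genes as a whole. Width was set beside all optimal peaks only.

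**Figure D3:**
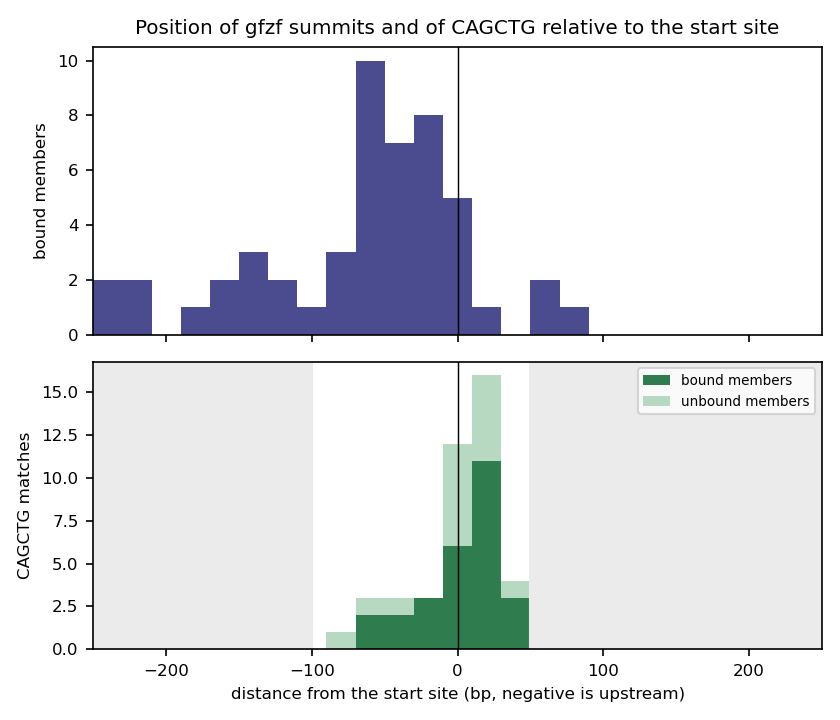
Distance from the TSS (bp, negative is upstream) of the gfzf summits at the 50 bound genes (top) and of the centres of the 42 CAGCTG matches in the core promoters of all 75 genes (bottom, stacked by bound state; grey areas were not searched). Most summits lie upstream of the start, with a median of -51 bp, and 25 of the 42 matches lie downstream of it.

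Many ribosomal genes have the start of a gene on the other strand close by. Such a start is called divergent here, although whether the 2 genes point away from each other was not checked. A divergent start lay within 500 bp of 54 of the 75 genes (72.0%), against 27.8% of all protein-coding genes. Genes of this kind were bound more often across the genome: 62.7% of the 3878 genes with a divergent start and 21.6% of the 10090 without. Of the 54 ribosomal genes with a divergent start 37 were bound (68.5%), near the share of other such genes. Of the 21 without one 13 were bound (61.9%), above the 21.6% of other such genes. At the summits themselves, 27 of the 50 bound genes (54.0%) shared the summit with another protein-coding start, against 41.9% of all bound genes. The neighbour was on the other strand at 26 and on the same strand at 2, with mRpL53 having one of each. The 26 include mRpS14, whose 5′ untranslated region overlaps that of its neighbour Naa15-16. The signal had a median of 406.2 at the 27 shared summits and 289.7 at the other 23, with ranges of 95.0 to 7376.7 and 96.5 to 3251.4.

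The neighbours at shared summits included other genes of mitochondria as well as unrelated ones. Mitofilin, a gene for a protein that organises the inner membrane, stood with mRpL35 (signal 100.4). HtrA2, which encodes a protease of the intermembrane space, stood with mRpL11, and Taz, whose product remodels cardiolipin, with mRpL18 (643.8). With ATPsynD these made 4 neighbours with a known role in mitochondria, named after the values were seen and not a full count. Others were rept, a gene for an ATPase of chromatin remodelling complexes (mRpL21, 1088.1), FoxK, a gene for a forkhead transcription factor (mRpL2, 323), and norpA, which encodes the phospholipase C of phototransduction (mRpL33, 129.8).

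Few summits at ribosomal genes held the elements often found at promoters of broadly expressed genes. Within 50 bp of the summit, on either strand, the Motif 1 core was found at 3 of 50 genes (6.00%), which were mRpS16, mRpL48 and mRpL22, against 15.4% of the 3652 optimal peaks within 250 bp of a protein-coding start. The DRE was found at 3 genes, mRpL10, mRpL12 and mRpL19 (6.00% against 10.2%), Motif 6 at mRpL15 alone (2.00% against 4.16%) and Motif 7 at mRpL21 and mRpL37 (4.00% against 8.21%). At least 1 of these 4 elements was present at 9 genes (18.0% against 33.7%). Within 100 bp it was 16 genes (32.0% against 48.0%). A gene with such an element was not always strong: the 3 genes with a DRE had signals of 194.4, 152.1 and 118.5, and those with a Motif 1 core 5453.2, 1228.4 and 1214.3. Motif 7 and the DRE can overlap, as they do upstream of mRpL22.

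The same search was made in the core promoter, from 100 bp upstream to 50 bp downstream of the most upstream TSS. There the Motif 1 core stood at 8 of the 75 genes (10.7%), against 6.59% of all genes. They were mRpL13, mRpS16, mRpL55, mRpS21, mRpL48, mRpL22, mRpS30 and the unbound mRpL27. Of all genes with this core 95.4% were bound, beside 7 of these 8. Among the 10 strongest ribosomal genes 4 held it. The DRE stood at 16 genes (21.3% against 7.63%), of which 8 were bound and 8 were not, while 62.9% of all genes with a DRE were bound. Motif 7 stood at 13 genes (17.3% against 7.04%), with 7 bound and 6 unbound, against 62.2% bound of all genes with it. The TATA box TATAAA, from 40 to 20 bp upstream of the start, was present at 6 genes (8% against 7.78%), GAGAG at 7 (9.33% against 18.1%), and CTTT within 5 bp of the start at 3 (4.00% against 5.63%). Among bound genes alone the shares were closer to those of all bound genes or below them. The Motif 1 core stood at 14% of bound ribosomal genes and 19.1% of all bound genes, the DRE at 16.0% and 14.5%, and Motif 7 at 14% and 13.3%. Among unbound genes the DRE stood at 32.0% of the ribosomal genes and 4.23% of all, and Motif 7 at 24.0% and 3.97%. The bare letters CTTT are a loose stand-in for the start element of cytosolic ribosomal protein genes.

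The element shared by most ribosomal genes was the E-box CAGCTG, which reads the same on both strands. It stood in the core promoters of 40 of the 75 genes (53.3%), against 12.1% of all genes, a ratio of 4.42. The share was 53.2% in the large subunit and 53.6% in the small subunit. It was 52.0% of the bound and 56.0% of the unbound ribosomal genes, against 16.7% of all bound and 9.74% of all unbound genes. Of the ribosomal genes 26 of 40 with the E-box (65.0%) and 24 of 35 without it (68.6%) were bound, which is close. Over all genes the shares differed more: 45.8% of the 1684 with it and 31.2% of the 12284 without it were bound. Genes with a divergent start hold it more often, at 18.2% of all of them. It was also found at 57.1% of the ribosomal genes that have no divergent start, against 9.68% of all such genes. A longer form of the E-box, whose sequence is not given here, stood at 24.0% of the ribosomal genes and at 3.01% of all genes. Of the 23 other palindromes of 6 bases with 4 G or C none was found at more than 5.33% of the ribosomal genes, and the highest ratio of their share to that in all genes was 2.53.

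The E-box lay near the start. Its centres lay at a median of 9 bp downstream of the TSS in the ribosomal genes (quartiles -9.25 and 20), and at -15.5 in other genes (quartiles -47.5 and 11.5). Of the 42 matches in ribosomal genes 25 lay downstream of the start (59.5%), against 35.7% of 1796 matches in other genes. It can be read in the lines above, downstream of the start in mRpL55, mRpL48, mRpL2, mRpL19, mRpL17 and mRpS25. The gfzf summits lay upstream of most starts, and 10 of the 50 summits had a CAGCTG within 50 bp (20%, against 9.99% of promoter peaks). The median signal was 332.7 at bound genes with the element in the core promoter and 246.7 at those without it. By the window of 50 bp around the summit the order was the other way, with 250.4 with the element and 332.7 without. The longer form and the other palindromes were searched after the share of the E-box had been seen.

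Other genes of mitochondrial gene expression had similar shares of the E-box, and cytosolic ribosomal protein genes had a lower one. Most genes of the mitochondrial translation factor list start, extend or end protein synthesis on these ribosomes, which GatA, GatB and GatC do not. That list held the E-box at 6 of 12 genes (50%). Mitochondrial aminoacyl-tRNA synthetases, which load the tRNAs, held it at 7 of 15 (46.7%), and genes of mitochondrial transcription and RNA processing at 5 of 12 (41.7%). It was found at 18 of 88 genes of the respiratory chain and ATP synthase (20.5%) and at 8 of 93 genes of the cytosolic ribosomal list (8.60%). The respiratory chain list was taken by symbol prefix (ND-, Sdh, UQCR-, COX and ATPsyn). It thus also holds paralogs with an added L in the symbol, such as COX4L, ND-20L and SdhAL. The cytosolic ribosomal list was likewise taken by prefix (RpL, RpS and sta). It also holds genes with like in the symbol, such as RpL22-like and RpL24-like. These shares are descriptions of lists of unequal size, with no test of their differences.

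Binding did not divide the lists in the same way. Of the translation factor list 8 of 12 genes were bound (66.7%), with a median signal of 299.3. The strongest were mEFG1 at 1681.6, GatA at 1346.0 and GatC at 404.5, while mEFTu2 and mIF2 were among those not bound. Of the synthetases 6 of 15 were bound (40%), led by ArgRS-m at 2138.4, AsnRS-m at 1979.8 and ProRS-m at 495.1, and AlaRS-m and CysRS-m were not. Of the transcription and RNA genes 9 of 12 were bound (75%), led by mldr at 4097.7, mtTFB1, a gene for an rRNA methyltransferase of mitochondria, at 2833.3 and bsf at 1053.2. Lrpprc2 and mTerf5 were not. The cytosolic ribosomal list had the highest share, 75 of 93 (80.6%), and a median signal of 1347.7, against 326.6 for the mitochondrial ribosomal genes. That share covers every gene with the prefix: RpL22-like and RpL37-2 were not bound, while RpL24-like was. The respiratory chain and ATP synthase genes were bound at 54 of 88 (61.4%), with a median of 719.2. Among the unbound genes of that list were paralogs with an added L, such as COX4L, ND-20L and SdhAL, while COX7AL was bound. The share is therefore not that of the main subunits alone.

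**Figure D4:**
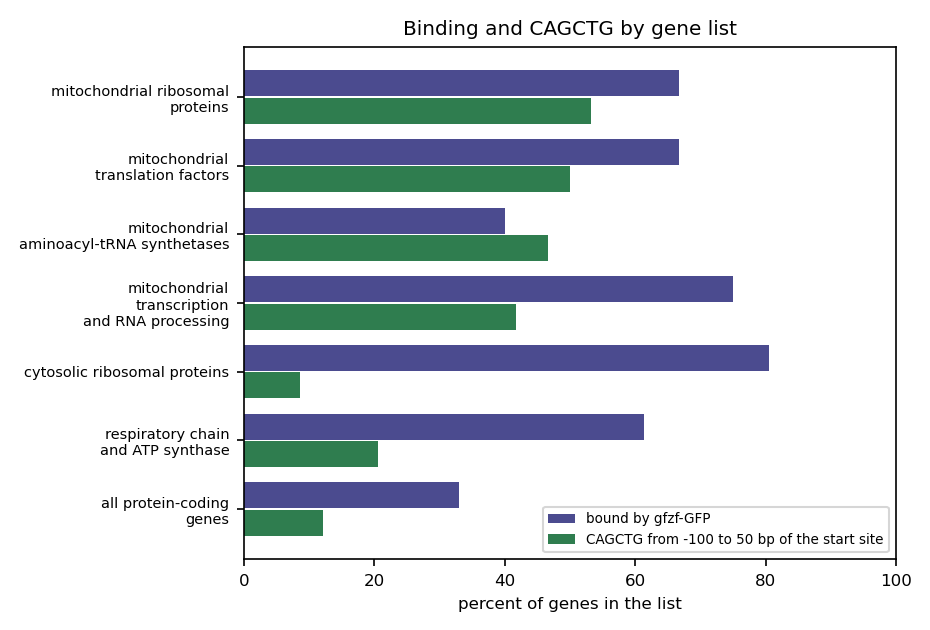
Percent of the genes in each list that were bound by gfzf-GFP (upper bar of each pair) and that had CAGCTG between 100 bp upstream and 50 bp downstream of the start (lower bar). The mitochondrial ribosomal genes (66.7% and 53.3%) and the cytosolic ribosomal list (80.6% and 8.60%) are both often bound but differ in the element.

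The genes are spread over the genome, and bound members lay on every arm that holds one. On 2L 6 of 12 were bound, on 2R 9 of 13, on 3L 10 of 17, on 3R 17 of 21 and on X 8 of 12. The share of all genes bound ran from 29.9% on 2L to 35.6% on X.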

How the data were processed

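ChIP-seq peaks of 2 replicates (1 group) were analysed. The authors deposited peak lists in the narrowPeak layout on dm6 and dm3: 1 per replicate, 1 for the pooled reads and the optimal set after an irreproducible discovery rate (IDR) filter. Only the dm6 lists were used. Column 7, a signal of the authors' peak caller, was used as deposited, with no scaling. The deposited −log10 q-value column served no call. For aligner, peak caller and depth, nothing was given in the sources used here. Columns of other samples numbered 0.

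TSSs came from protein-coding transcripts of Ensembl release 115. The optimal peaks are the 5007 strongest of the pooled list and keep its signals. Replicate peaks were matched to a summit within 100 bp. Motifs were matched exactly, on both strands, in the release 6 genome of RefSeq. Scripts used numpy 2.4.6, matplotlib 3.10.9 and scipy 1.17.1 under Python 3.11.15, and the calls were tested on simulated data. Counts and medians are set beside those of all genes, with no test, since there was 1 group.

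The members and lists were chosen with earlier results of these data known. Of 18 translation factor symbols 6, and of 14 transcription and RNA symbols 2, matched no gene, and 3 of the 6 are other spellings of symbols that matched. Values in both replicates are given for the 10 strongest and 3 weakest bound genes, the 5 strongest unbound genes, bonsai and tko. For the translation factor, synthetase and transcription lists the 3 strongest bound genes are given with their pooled signal, and 2 unbound genes are named. Sequences were limited to windows with at most 30 bases of annotated untranslated region in a row, so start-site windows stand in for several summit windows. Alternatives covered TSS distance, peak list, single replicates, TSS choice and motif window.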

Additional observations from a re-analysis of the deposited data

How the results depend on the processing

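Of 71 alternative values of 13 results, 52 stayed within 1.5 times the count reported or within the spread of the replicates, and 19 did not. The share of ribosomal genes bound stayed above that of all genes under every setting run: 50.7% against 26.6% at 100 bp, 70.7% against 39.3% at 1000 bp, and 30.7% against 20.2% with the strongest 2504 peaks only. With those peaks 23 genes were bound, 15 of the large and 8 of the small subunit, and 2823 of all genes. The median signal was then 1360.0 at the ribosomal genes and 1699.3 at all bound genes. The relaxed pooled list called 7204 of all genes, with medians of 152.9 at the ribosomal genes and 173.4 at all genes called. With 1 replicate's 5007 strongest peaks, 45 to 48 ribosomal genes were bound, 29 to 34 of the large and 14 to 16 of the small subunit, and 4502 to 4569 of all genes. Their median percentile of signal was 48 in the optimal set and 48.9 to 52.1 in single replicates. The median signal was 364.6 at 100 bp and 370.8 at 500 bp, against 756.1 and 735.3 over all bound genes. The median summit position was -42 bp and -54 bp, with -51 to -47 bp in single replicates. Shared summits numbered 15 of 38 bound genes at 100 bp and 44 of 53 at 1000 bp, and 23 to 27 with 1 replicate. The share over all bound genes was counted at 250 bp only (41.9%), so these counts have nothing to be set against. The Motif 1 core was at 1 summit within 25 bp and at 6 within 100 bp. Within 100 bp the DRE was at 5 summits and Motif 6 or 7 at 7. Within 50 bp ATCGAT was at 8 summits, a form not counted over all promoter peaks. With 1 replicate and 50 bp, the Motif 1 core was at 3 to 4 summits, the DRE TATCGATA at 3 and Motif 6 or 7 at 4. The wider window or every TSS gave 42 genes with CAGCTG, an alternative chosen after seeing the data, as were the single-replicate values of position, shared summits and motifs. The causes were not tested. Depth behind single peaks is unknown.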
